A study of Rattus norvegicus with 4 samples.

Results

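In single cells of the rat anterior pituitary, 6 of the 30058 genes counted are described here: the NR4A orphan nuclear receptor genes *Nr4a1*, *Nr4a2* and *Nr4a3*, the activity-regulated gene *Arc*, the MAP kinase phosphatase gene *Dusp1* and the cAMP-responsive repressor and activator gene *Crem*. These 6 members were chosen by their detection and level across the cell types and lanes of these same data, so their levels by type are given as a description, with no test, and the tests between lanes below are no independent evidence. Single-cell RNA sequencing (10X Genomics, 3′ chemistry) had been run on dispersed anterior pituitary cells of Sprague Dawley rats. The female pool held 4 pituitaries of diestrus rats at postnatal day 44, and the male pool held 4 pituitaries at postnatal day 59. Each pool was loaded on 2 lanes. Sex, pool and age can therefore not be told apart, the lanes are technical replicates, and p-values of the sex tests measure only the spread between lanes.

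Of 7861 cells, 6846 remained after classification and quality control. They were 2313 folliculostellate cells (FSC), 1889 somatotrophs (S), 793 corticotrophs (C), 552 leukocytes (Le), 482 lactotrophs (L), 361 erythrocytes (E), 238 gonadotrophs (G), 133 endothelial cells (EC) and 85 thyrotrophs (T). The lanes held 16193198 to 19698836 UMIs (unique molecular identifiers, 1 per captured transcript) in these cells and are named female lane A (1868 cells before filtering), female lane B (1861), male lane A (2047) and male lane B (2085). The Y-linked gene *Eif2s3y* had 0 and 1 UMI in the female lanes and 2038 and 2100 in the male lanes. *Kdm5d*, also Y-linked, had 0 and 0 against 228 and 264. The Y-linked *Ddx3y* did not separate the sexes, with 10 and 8 UMIs in the female lanes and 11 and 14 in the male lanes. A count of 30 barcodes occurred in more than 1 lane. The defining markers of a type were high in it and low elsewhere, for instance 8972 to 9410 CPM (a gene's UMIs summed over cells and scaled to the total UMIs of the same cells) for the 4 leukocyte markers in Le and 6.69 to 9.33 in S. Depth per cell differed between the sexes in some types: median UMIs in L were 18316 in females and 7268.5 in males, and in S 11540 and 15457.

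As background, the NR4A receptors are nuclear receptors that are thought to act without a classical ligand and are set mainly by how much of them is made. Together with *Arc*, *Dusp1* and *Crem* they belong to the immediate early genes, which are transcribed soon after a cell receives calcium, cAMP, growth factor or stress signals. In corticotrophs, NR4A receptors are known to act on the proopiomelanocortin gene downstream of corticotropin-releasing hormone. In somatotrophs, cAMP is a main second messenger of growth hormone-releasing hormone. The cAMP response element (CRE), TGACGTCA, is bound by CREB and by CREM. One form of CREM, ICER, is made from a promoter inside the gene and represses CRE-driven genes. *Arc* encodes a capsid-like protein best known from neurons, and *Dusp1* a nuclear phosphatase that switches off MAP kinases. These genes are also known to respond to dispersal of a tissue, which all cells here had undergone.

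The promoters are shown because the members moved together in S and because the CRE is the best known element of this group. RefSeq windows of the rat assembly GRCr8, from 250 bases before to 50 bases after a transcript start, were matched for 4 members in 6 windows, 1 each for *Nr4a1*, *Nr4a2* and *Dusp1* and 3 for *Crem*. Capitals mark the CRE core TGACG on either strand, which is also part of each whole CRE. The windows of *Nr4a1* (chr7:134259888-134260187, plus strand), *Nr4a2* (chr3:62104838-62105137, minus strand), *Dusp1* (chr10:17184603-17184902, plus strand) and the third start of *Crem* (chr17:58985240-58985539, plus strand) read 5′ to 3′:
Nr4a1: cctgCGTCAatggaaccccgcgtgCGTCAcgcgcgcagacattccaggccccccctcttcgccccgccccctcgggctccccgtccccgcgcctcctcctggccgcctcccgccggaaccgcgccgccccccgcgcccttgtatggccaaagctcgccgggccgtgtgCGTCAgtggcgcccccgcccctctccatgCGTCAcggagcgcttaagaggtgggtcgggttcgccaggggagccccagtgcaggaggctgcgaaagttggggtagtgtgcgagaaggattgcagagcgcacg
Nr4a2: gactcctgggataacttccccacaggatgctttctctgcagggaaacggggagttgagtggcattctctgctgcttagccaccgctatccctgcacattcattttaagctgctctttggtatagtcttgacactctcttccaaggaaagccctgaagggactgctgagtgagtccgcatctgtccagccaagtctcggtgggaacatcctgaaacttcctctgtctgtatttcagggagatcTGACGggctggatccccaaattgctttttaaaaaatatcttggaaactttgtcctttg
Dusp1: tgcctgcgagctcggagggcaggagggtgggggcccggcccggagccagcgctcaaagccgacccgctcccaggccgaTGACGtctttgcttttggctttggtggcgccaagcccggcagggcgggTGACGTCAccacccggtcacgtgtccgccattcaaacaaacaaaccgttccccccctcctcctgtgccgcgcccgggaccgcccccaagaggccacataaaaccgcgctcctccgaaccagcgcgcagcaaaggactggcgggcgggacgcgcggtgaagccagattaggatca
Crem: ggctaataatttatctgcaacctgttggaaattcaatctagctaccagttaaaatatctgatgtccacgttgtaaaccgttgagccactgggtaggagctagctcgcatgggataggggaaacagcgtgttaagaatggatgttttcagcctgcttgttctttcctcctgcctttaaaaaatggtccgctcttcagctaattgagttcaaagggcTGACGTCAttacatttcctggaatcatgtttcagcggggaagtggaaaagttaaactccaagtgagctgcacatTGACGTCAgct

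The whole CRE was found once in the *Dusp1* window, 124 bases before the start, and in 2 of the 3 *Crem* windows, at 35 bases before and 40 bases after the third start and at 56 bases before the second. It was found in 1.83% of 33469 windows of the same length in the table (612 windows). The *Nr4a1* window held 4 CRE cores and no whole CRE, and the *Nr4a2* window 1 core. The core was far more common, in 21.2% of all windows. The elements of other factors were also searched on both strands, namely the NR4A binding element NBRE (AAAGGTCA, in 1.43% of all windows) and the CArG box of serum response factor (1.64%), and neither was found in the 6 windows. A match of letters is a description and no evidence of binding. The 3′ counts cannot tell from which start a *Crem* transcript came, so ICER and the other forms are counted together.

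The NR4A receptors had different patterns over the cell types. *Nr4a1* was highest in FSC, with 626 and 649 CPM in female lanes A and B and 452 and 422 in male lanes A and B. Le followed with 415, 348, 334 and 264 CPM, and all 4 lanes of FSC lay above all 4 of Le. G came at 211, 204, 197 and 176 CPM and was the steadiest of the hormone types. From Le downward, each type overlapped the next in its range over lanes until C, which lay above E. E is free of nuclei and held 3 UMIs of *Nr4a1* in 361 cells at a median depth of 8246 UMIs, 0.952 CPM. With hormone and globin genes left out of the totals this was 2.79 CPM. The 4 FSC markers summed to 2.31 to 10.5 CPM over the lanes in E and to 10.9 to 24.7 in Le. The level in E is therefore not taken as the level of stray transcripts in other types.

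*Nr4a2* had another order. Le were highest with 262, 246, 234 and 241 CPM, and no lane of another type reached them. FSC, the highest type for *Nr4a1*, were next to last for *Nr4a2* with 27.2, 22.9, 32.3 and 24.3 CPM. L, EC, C, S, G and T lay between, and neighbours among them overlapped. *Nr4a3* was again highest in FSC with 160, 131, 141 and 131 CPM. Le had 106, 85.9, 77.1 and 79.1 and did not overlap FSC, and T had 52.8, 37.0, 79.5 and 152, the last within the range of FSC. In S it was low, at 2.53 and 3.87 CPM in females and 19.5 and 22.7 in males.

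Among the UMIs of the 3 receptor genes together, counted 1 per captured 3′ end and so not scaled by length, the mix differed by type. In FSC, 76.0% of 13149 UMIs were *Nr4a1*, 3.86% *Nr4a2* and 20.2% *Nr4a3*. In Le, 36.6% of 2494 were *Nr4a2*, and in C 39.6% to 44.4% over the lanes, of 1531 in all. In S, *Nr4a2* made up 18.1% in either female lane and 30.7% and 28.4% in the male lanes.

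*Arc* was the most restricted member. FSC had 290 and 368 CPM in the female lanes and 149 and 180 in the male lanes, and male L had 196 and 162. Female L had 11.7 and 13.9. Le held only 7 UMIs of *Arc* in 552 cells and C 24 in 793, levels of 1.88 and 2.58 CPM beside 0.317 in E. Whether these few UMIs were stray transcripts was not tested. An *Arc* count above threshold was found in 28.5% of FSC (exact 95% interval 26.7% to 30.4%), 15.4% of L (12.3% to 18.9%) and 0.181% of Le (0.00459% to 1.01%). By sex it was found in 2.21% of female and 27.0% of male L, and in 33.1% of female and 24.0% of male FSC. The pooled intervals of L and FSC therefore hold the share of neither sex.

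*Dusp1* had the most UMIs of the 6 members in every type but C, where *Crem* had more, and T, where *Nr4a1*, *Nr4a3* and *Crem* had more. In Le it had 2196, 1855, 1684 and 1472 CPM, in FSC 1367, 1177, 904 and 920, and in EC 977, 678, 769 and 829. L had 330 and 413 in the female lanes and 791 and 713 in the male lanes. T was lowest of the nucleated types with 96.8, 80.2, 47.7 and 56.2. It was above its threshold in 83.9% of Le (80.5% to 86.8%), 69.9% of EC (61.4% to 77.6%) and 61.3% of FSC (59.2% to 63.3%), but in 7.06% of T (2.63% to 14.7%). In E, 0 of 361 cells were above threshold, which allows a share of up to 0.831%, although 2.77% of E had at least 1 UMI.

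*Crem* was the most even. Le led with 363, 318, 226 and 330 CPM, and no other lane reached their lowest value. S, C, T, G, FSC, L and EC then followed, each overlapping the next, from a mean over lanes of 154 CPM (SD 52.0, n = 4 lanes) in S to 71.0 (SD 21.5) in EC. *Crem* was above threshold in 63.6% of Le (59.4% to 67.6%), 50.1% of S (47.8% to 52.4%) and 40.1% of FSC (38.1% to 42.2%). All intervals cover counting error only and pool the sexes. For instance, *Crem* was above threshold in 38.8% of female and 59.9% of male S, both outside the pooled interval.

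**Figure D1:**
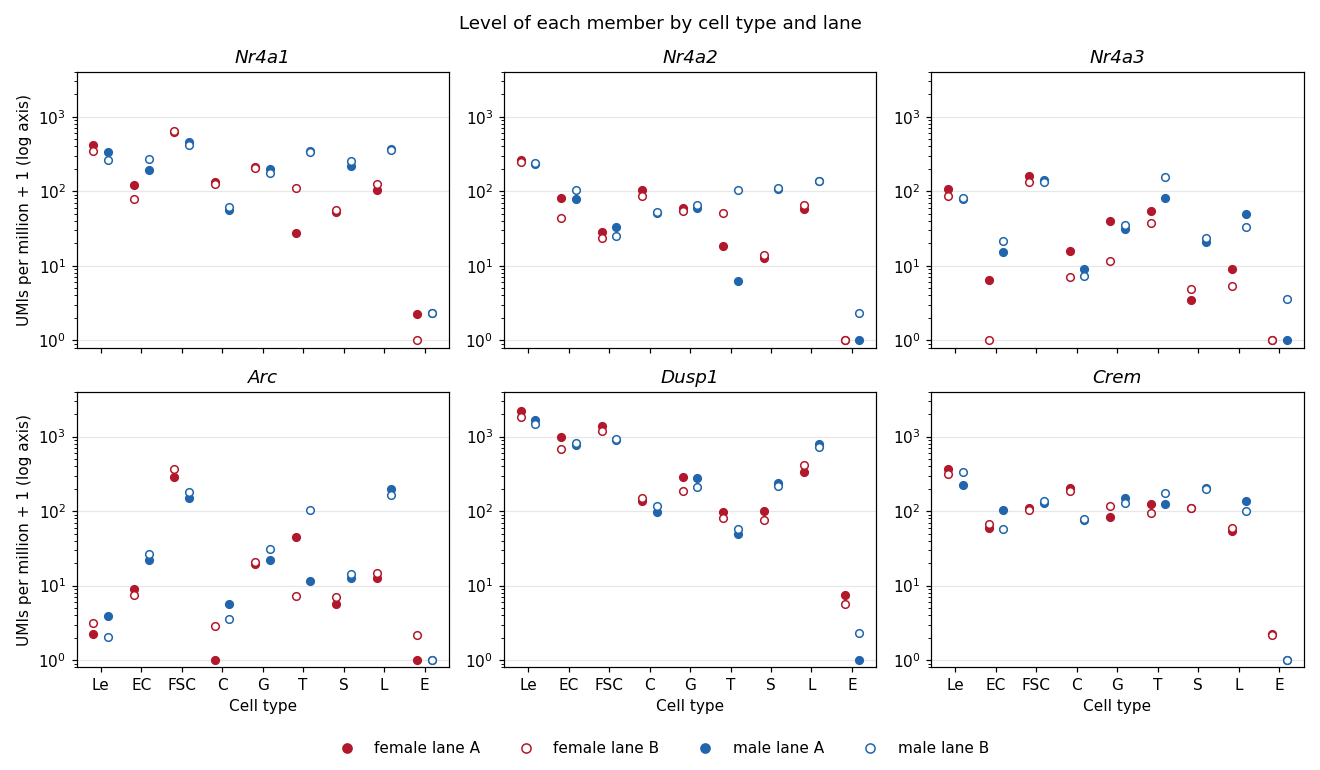
Level of each member in CPM plus 1 (log axis) by cell type, with 1 point per lane (red female, blue male, filled lane A, open lane B). *Nr4a1*, *Nr4a3* and *Arc* are highest in FSC, *Nr4a2*, *Dusp1* and *Crem* in Le, and in S and L the male points lie above the female points for all 6 members.

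Within a type, a minority of cells held most of the transcripts. The 10% of FSC with the most *Nr4a1* held 46.9% of its UMIs, with up to 81 UMIs in a cell, while 38.4% of FSC had none. For *Dusp1* in Le that share was 28.3%, and 73.0% of Le had 5 UMIs or more. Female S were the opposite case: 76.4% had no *Nr4a1* UMI and the top 10% held 78.0% of them, against 38.8% and 49.8% in male S. Female S also held fewer *Nr4a1* UMIs per cell, 0.643 against 3.68 as means of the lanes. The spread over cells was not compared at like level or depth.

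Several pairs of members were found in the same cells more often than the product of their single shares. This was counted in cells thinned to 2000 UMIs each, so that total depth did not enter. In male L, *Nr4a1* and *Dusp1* were both found in 63 of 256 cells, 24.6% against a product of 15.2%. In male S the pair *Nr4a1* and *Nr4a2* was found in 76 of 1012 cells, 7.51% against 4.54%. In female FSC, *Nr4a1* and *Arc* were found together in 210 of 1155 cells, 18.2% against 11.8%. For *Dusp1* with *Crem* the excess differed by type. It was small in male S, 7.91% against 7.58%, and in male FSC, 12.6% against 12.3%, but in male L it was 12.5% against 8.73%.

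The sexes were compared within each type to learn which members differ between the female and the male pool. UMI sums per lane were fitted with edgeR's quasi-likelihood test (2 female against 2 male lanes), and a gene was called at a Benjamini-Hochberg adjusted p under 0.001 over all genes of the type. Of 54 pairs of a member and a type, 44 passed the filter on low counts in 8 types, and 17 were called, 11 higher in males and 6 higher in females. The lanes of the sexes did not overlap in 32 of the 44 pairs, among them all 17 that were called. The share of all genes without overlap was not counted, so this count does not set the members apart. The share of all genes called is given with each type below.

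In S, all 6 members were higher in males. *Nr4a2* had 11.9 and 13.1 CPM in the female lanes and 106 and 108 in the male lanes, with 3.04 as log2 fold change in the fit (SE 0.10, edgeR adjusted p = 3.52e-23). *Nr4a3* rose by 2.65 (SE 0.21, adjusted p = 2.28e-12), and *Nr4a1*, at 51.3 and 55.4 against 220 and 251 CPM, by 2.08 (SE 0.07, adjusted p = 9.78e-23). *Dusp1*, at 101 and 75.6 against 239 and 214, was higher by 1.31 (SE 0.07, adjusted p = 1.11e-16). *Arc* was higher by 1.15 (SE 0.21, adjusted p = 6.32e-05) from low levels of 4.67 and 6.09 against 11.7 and 13.3. The smallest difference was that of *Crem*, 108 and 110 against 203 and 195 CPM, which was 0.81 on the log2 scale (SE 0.06, adjusted p = 7.98e-14). In S, 10.9% of all 11927 genes tested were called in either direction. Leaving out female lane A took the call from *Arc* (adjusted p = 0.00273), as did DESeq2 (0.0187) and keeping outliers and doublets (0.00108), and the other 5 stayed called under every alternative run.

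In thinned S, which leaves out the difference in total depth, 62.7% of male cells held at least 1 member and 29.1% at least 2, against 34.9% and 6.61% of female cells. The lanes differed little in this share, 29.6% and 28.5% in males and 6.82% and 6.41% in females for at least 2 members. The cells with *Nr4a2* in thinned S were 3.08% in females and 16.6% in males, and before thinning, above threshold, 4.90% and 31.6%. The 4 FSC marker genes, which mark the type where *Nr4a1* was highest, summed to 15.4 to 16.4 CPM in female S and 13.5 to 16.8 in male S, and the 4 Le markers to 7.75 to 9.33 and 6.69 to 7.87. None of these markers was at 0 in S, and both sums overlapped between the sexes.

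In L, 4 of 6 members were higher in males beside 17.7% of all genes called. *Arc* had 11.7 and 13.9 CPM in the female lanes and 196 and 162 in the male lanes, with 3.16 as log2 fold change in the fit (SE 0.18, adjusted p = 5.93e-20). *Nr4a3*, at 7.97 and 4.33 against 48.1 and 32.3, was higher by 2.06 (SE 0.32, adjusted p = 8.22e-07), and *Nr4a1*, at 105 and 125 against 364 and 352, by 0.99 (SE 0.10, adjusted p = 3.18e-11). *Dusp1* was higher by 0.37 (SE 0.08, adjusted p = 0.00034). *Nr4a2* (0.53, SE 0.13, adjusted p = 0.0014) and *Crem* (0.43, SE 0.15, adjusted p = 0.0213) did not pass. These fold changes are scaled by TMM factors (edgeR's scaling between lanes), whereas CPM are scaled by all UMIs, and in L they differ. The log2 ratio of male to female lane means in CPM was 3.80 for *Arc*, 2.71 for *Nr4a3* and 1.64 for *Nr4a1*. For *Dusp1* it was 1.02, for *Nr4a2* 1.18 and for *Crem* 1.07. The call of *Dusp1* was lost without female lane A (adjusted p = 0.0894), without male lane A (0.00884), with DESeq2 (0.0197), without the cells assigned by neighbours (0.00409) and in thinned cells (0.0632), and that of *Nr4a3* with DESeq2 (0.0014).

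A female L held more UMIs than a male L, so the members were also counted per cell, with no scaling. *Arc* then had 0.243 UMIs in females and 1.45 in males, *Nr4a3* 0.113 and 0.326 and *Nr4a1* 2.17 and 2.88, with no overlap of lanes, but *Dusp1* had 7.05 and 6.06, *Nr4a2* 1.13 and 1.09 and *Crem* 1.05 and 0.949. With library size in place of TMM factors, the median shift over all genes tested in L moved from 0.02 to 0.67, the genes called changed from 504 higher in males and 1015 higher in females to 2434 and 331, *Nr4a2* (1.19) and *Crem* (1.09) were called too, and only the excess over that median compares the members with other genes. The sum of the 4 FSC markers in L was 12.7 to 14.4 CPM in females and 10.4 to 63.6 in males, with none of the 4 at 0, and its part in the *Arc* difference was not tested.

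In C the direction was the opposite, and 0.624% of all genes were called. *Crem* had 204 and 184 CPM in females and 75.6 and 77.0 in males, a log2 fold change (male minus female) of -1.40 (SE 0.09, adjusted p = 1.88e-13). *Nr4a1* had 131 and 123 against 55.5 and 61.3 (-1.18, SE 0.11, adjusted p = 1.2e-09), and *Nr4a2* 104 and 84.6 against 50.8 and 52.0 (-0.93, SE 0.12, adjusted p = 3.45e-06). *Dusp1* (-0.48, SE 0.10, adjusted p = 0.00447) and *Nr4a3* (-0.53, SE 0.35, adjusted p = 0.655) did not pass, and *Arc* had too few UMIs to be tested. Median depth in C was alike in both sexes, 11340.5 UMIs in females and 11500 in males. With cells thinned to 2000 UMIs the 3 calls were lost. The difference of *Crem* was then -1.61 (adjusted p = 0.00316), that of *Nr4a1* moved to -0.62 (adjusted p = 0.655) and that of *Nr4a2* to -0.73 (adjusted p = 0.76). DESeq2 did not call *Nr4a2* either (adjusted p = 0.00122).

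In FSC, *Arc* (-1.04, SE 0.10, adjusted p = 1.88e-06), *Nr4a1* (-0.58, SE 0.05, adjusted p = 5.07e-07) and *Dusp1* (-0.52, SE 0.05, adjusted p = 3.98e-06) were higher in females, where 2.93% of all genes were called. Their lanes are given above, and in each case both female lanes lay above both male lanes. *Crem* went the other way without passing (0.30, SE 0.07, adjusted p = 0.0105), and *Nr4a2* and *Nr4a3* had overlapping lanes. With no filter on low counts only 6 of 21250 genes were called in FSC and the 3 members were not, at adjusted p-values of 0.0225, 0.00457 and 0.0219. Median depth in FSC was 6360 UMIs in females and 7413.5 in males. Counted per cell with no scaling, the log2 ratio of males to females was -0.73 for *Arc*, -0.26 for *Nr4a1* and -0.20 for *Dusp1*. The share above threshold was 50.5% of female and 48.8% of male FSC for *Nr4a1*, and 61.9% and 60.6% for *Dusp1*. At least 2 members were found in 52.8% of female and 49.6% of male thinned FSC, but in 73.9% and 80.1% without thinning.

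In T, *Nr4a1* was called (2.29, SE 0.32, adjusted p = 5.84e-07, beside 1.68% of all genes). It had 26.4 and 111 CPM in the female lanes and 345 and 337 in the male lanes, from only 3 and 18 UMIs in the female and 130 and 102 in the male lanes of 85 cells, at median depths of 6237.5 UMIs per cell in females and 13809 in males. It was not called with DESeq2 (adjusted p = 0.00255), without the cells assigned by neighbours (0.00113) or in thinned cells (0.0654). No member was called in G (4.44% of all genes called), Le (0.299%) or EC (0.814%). Some alternatives added a call. With no filter on low counts *Dusp1* was called in Le, higher in females (-0.36, edgeR adjusted p = 0.000607). With outliers and doublets kept *Nr4a1* was called in EC, higher in males (1.11, edgeR adjusted p = 0.000392). Among the differences that did not pass were those of *Nr4a1* in EC, 121 and 78.2 against 191 and 273 CPM (1.13, SE 0.26, adjusted p = 0.0114), of *Nr4a3* in T (1.48, SE 0.47, adjusted p = 0.0536) and of *Arc* in T (1.36, SE 0.72, adjusted p = 0.34), whose lanes overlapped. With 133 EC and 85 T, a difference that missed the limit is not shown to be absent.

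**Figure D2:**
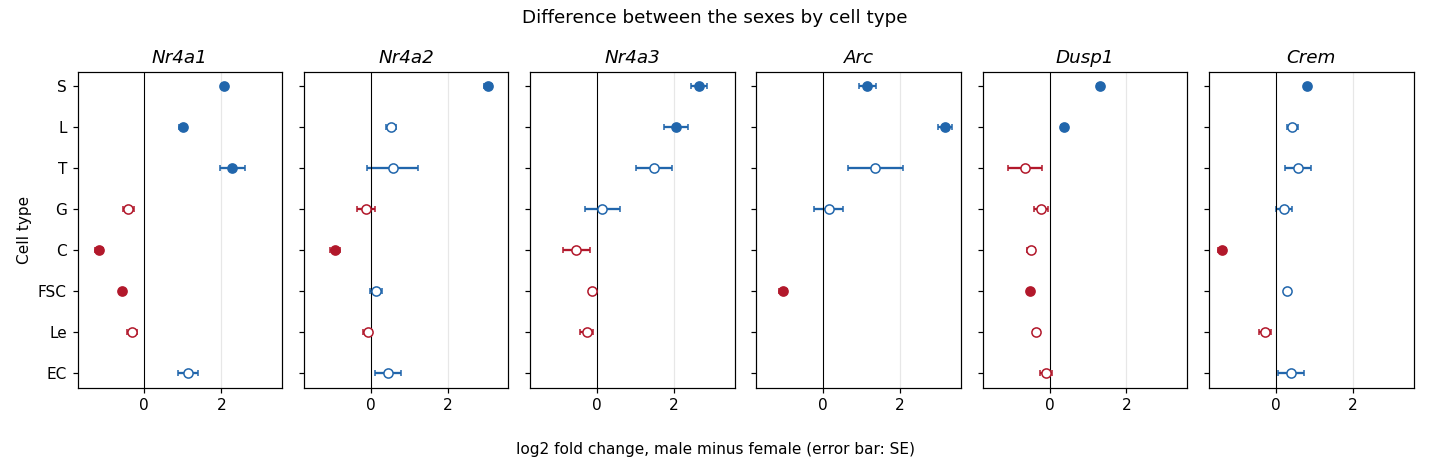
Log2 fold change of each member, male minus female, by cell type (2 lanes per sex), filled where the adjusted p was under 0.001. The error bar is the SE worked back from edgeR's F statistic. Points lie to the right of 0 (higher in males) for all 6 members in S and L, and the filled points of C and FSC lie to the left.

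The same sex difference was tested for being unequal between the 6 pituitary types in 1 fit (edgeR F test of 5 terms of type by sex), in which 11.5% of 13507 genes were called. All 6 members were called. The smallest adjusted p was that of *Nr4a1* (5.16e-25) and the largest that of *Nr4a3* (2.82e-10). *Nr4a1* was called higher in males in S, L and T and higher in females in C and FSC. *Nr4a2*, *Crem*, *Dusp1* and *Arc* were each called in both directions in different types. *Nr4a3* was called in S and L only, in 1 direction.

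Between the lanes of a sex, with cell types as blocks, no member was called by edgeR at an adjusted p under 0.001. Here 1 lane was set against 1 lane and the types stood in as replicates. The p-value therefore measures how alike a shift was over the types. The share of all genes called was 0.331% for the female pair of lanes and 0.145% for the male pair. At an unadjusted p under 0.05, 3 members differed within the female pair and 1 within the male pair by edgeR, and 1 and 0 by DESeq2, which called none. Of all genes, 796 of 11477 in the female pair and 538 of 11716 in the male pair were under that limit by edgeR. By DESeq2 these were 339 and 137 genes. *Arc* came nearest, higher in female lane B by 0.36 (SE 0.08, adjusted p = 0.00458), and *Nr4a3* was higher in female lane A by a log2 fold change of -0.34 (lane B minus lane A, SE 0.09, adjusted p = 0.0302). These differences are smaller than the called differences between the sexes in S and L for *Arc* and *Nr4a3*, but they cover all types together and are an unlike measure. Within a type lanes could lie further apart, as for *Arc* in T with 10.6 and 103 CPM in the male lanes (4 and 31 UMIs).

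**Figure D3:**
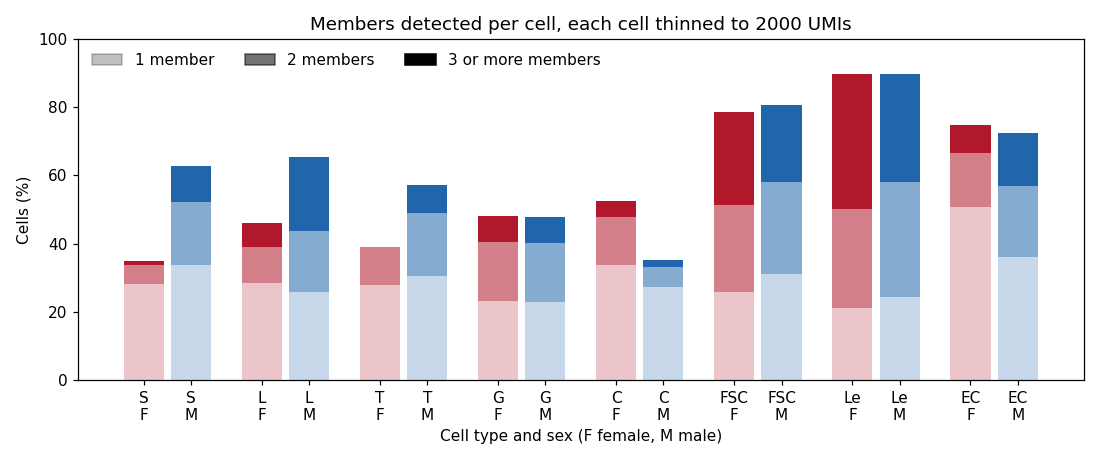
Share of cells (%) with 1, 2 or 3 or more of the 6 members, each cell thinned to 2000 UMIs, by cell type and sex (red female, blue male, darker for more members). At least 2 members were found in 29.1% of male and 6.61% of female S, in 39.5% of male and 17.7% of female L, and in 8.10% of male and 18.8% of female C. Without thinning these shares were 79.1% and 37.7% in S, 68.0% and 63.3% in L, and 40.0% and 60.7% in C. Thinning levels total UMIs but not the part held by hormone and globin genes. That part was 28.4% in female and 31.4% in male S, 31.9% and 18.5% in L, and 22.0% and 19.5% in C. Its effect on these shares was not tested.

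Le and FSC fall into ranges that marker genes divide. Among Le, 493 cells were above threshold for at least 2 of the complement genes *C1qa*, *C1qb* and *C1qc*, which mark macrophages, and 59 were not, with like median depths of 6505 and 6234 UMIs. *Dusp1* was at 1901 CPM in the first (lanes from 1587 to 2362) and at 819 in the second (308 to 1306), with no overlap, whereas *Crem* was at 284 (204 to 349) and 485 (415 to 663). Among FSC, 852 cells were above threshold for *Gpha2* and 1461 were not. *Nr4a3* was at 113 CPM in the first (97.8 to 129) and 155 in the second (132 to 181), and *Nr4a1*, *Nr4a2*, *Arc*, *Dusp1* and *Crem* overlapped. No test was run, as these ranges were set on measured genes of the same cells.

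Related genes were read from 6 lists, given by counts, some medians and some of the leading called genes, with no test of a list as a whole. CREB and its regulators (11 genes) stayed near the rest: 0 of 10 tested were called in S, and 1 of 9 in L, *Prkar1a*, a regulatory subunit of protein kinase A (0.55, SE 0.10, adjusted p = 2.85e-05), a call that was lost with DESeq2, in thinned cells and without female lane B. Of the calcium and cAMP induced genes, 5 of 15 were called in S, all higher in males, with a median log2 fold change of 0.47 beside 0.00 over all genes. They were led by the G protein signalling regulator *Rgs2* (1.93, SE 0.06, adjusted p = 7.13e-25), the small GTPase gene *Gem* (3.20, SE 0.11, adjusted p = 1.66e-22) and the AP-1 subunit gene *Fosl2* (2.60, SE 0.21, adjusted p = 1.79e-12). In L, 3 of 14 were higher in males, among them *Npas4*, a calcium-dependent transcription factor (2.23, SE 0.26, adjusted p = 7.9e-10), and 1, the neurotrophin gene *Bdnf*, was higher in females (-2.18, SE 0.32, adjusted p = 2.16e-07), beside 17.7% of all genes called in L. These 4 calls became 2 with DESeq2, 2 in thinned cells and 7 with library size. In G, 2 of 9 were called, *Rrad* higher in females (-4.20, SE 0.25, adjusted p = 2.89e-08) and *Gem* higher in males (1.62, SE 0.25, adjusted p = 0.000289). In FSC 1 of 14, *Rgs2*, was higher in males (0.73, SE 0.06, adjusted p = 2.44e-07), the opposite direction to the called members there. None of 13 was called in C and 0 of 10 in Le. In thinned cells 1 was called in G, and with no filter 0 in FSC.

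The FOS, JUN and EGR genes (9) were called in S, L, G, FSC and C, and 0 of 8 were called in Le. In S, 6 of 7 were higher in males (median 0.40), and in L 6 of 8 were higher in males and 1 in females (median 1.01), with *Fos* at 1.30 (SE 0.06, adjusted p = 6.75e-24). In FSC, 6 of 9 were higher in females (median -0.49), as were *Arc*, *Nr4a1* and *Dusp1* there. In G, 5 of 7 were higher in males (median 0.77), among them *Jun* (2.11, SE 0.21, adjusted p = 4.97e-06), whereas none of the 6 members was called in G. In C only *Jun* was called, and it was higher in males (0.62, SE 0.07, adjusted p = 1.76e-07), the opposite direction to *Nr4a1*, *Nr4a2* and *Crem*. In thinned cells the calls fell to 3 in S, 4 in L, 1 in G and 0 in C, with DESeq2 to 4 in L, and in FSC to 3 without male lane B and to 0 with no filter.

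Of 25 other immediate early genes, 11 were higher in males and 2 in females in S, 10 of 21 were higher in males in L, 4 of 17 in G, and 4 were higher in males and 8 in females in FSC, with 0 of 22 called in C and 0 of 25 in Le. In thinned cells 3 were called in S, 2 in L and 1 in G, with DESeq2 5 in L, and in FSC 7 without male lane B and 0 with no filter. *Btg2*, an antiproliferative gene, was among the leading ones in S (0.75, SE 0.05, adjusted p = 9.7e-16) and L (0.89, SE 0.08, adjusted p = 1.21e-13). *Cebpb* was also called in S (1.68, SE 0.16, adjusted p = 8.52e-11), but it differed between the female lanes as well (-1.62, SE 0.07, adjusted p = 4.5e-131). Among 8 other MAP kinase phosphatase genes none was called in a type, with 6 tested in S, 5 in FSC and 3 in C. Only 1 of them could be tested in L. The median log2 fold change of the 6 in S was 0.34 beside 0.00 over all genes, and 4 of them were under an adjusted p of 0.05. The share of all genes under that limit was not counted. With library size 1 phosphatase gene was called in FSC, and with no filter 1 in L. The 10 heat shock genes were mixed: in S 1 of 8 was higher in males and 3 in females (median -0.04), and in L 2 and 1 of 8. In FSC 1 of 8 was higher in males and 3 in females. In C 2 of 8 and in G 2 of 7 were called, all higher in males. In thinned cells 1 was called in S, 1 in L, 1 in G and 0 in C. With DESeq2 1 was called in each of L, C and G, with library size 7 in L, and with no filter 0 in FSC. The chaperone gene *Dnajb1* was higher in males in S (0.41, SE 0.05, adjusted p = 8.57e-09), L (0.94, SE 0.11, adjusted p = 1.61e-09) and G (1.73, SE 0.18, adjusted p = 9.11e-06). Whether the heat shock genes and the members share a cause was not tested.

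**Figure D4:**
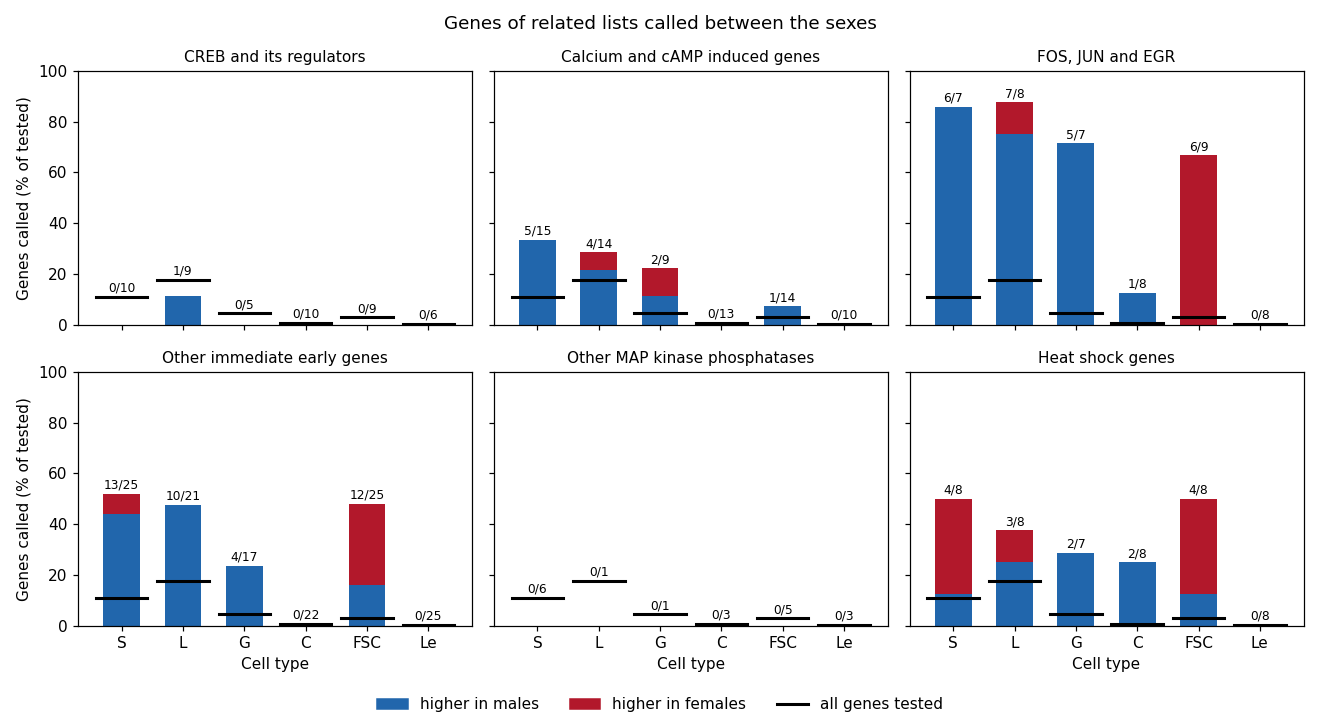
Share of the tested genes of each list called between the sexes (%), blue higher in males and red higher in females, with the number called of those tested above each bar and a black line at the share of all genes called in that type. The FOS, JUN and EGR genes reach 6 of 7 in S and 7 of 8 in L, and the other MAP kinase phosphatases stay at 0.

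Over 36 sums (9 types in 4 lanes, sharing lanes and depth), the genes with the most similar pattern were named for each member by Pearson's r of log2(CPM + 10) among 13860 genes with at least 100 UMIs. For *Nr4a1* they were *Coq10b* (r = 0.91), *Junb* (0.91) and *Ctsf* (0.89), for *Nr4a2* *Dpp7* (0.87), *Cttnbp2nl* (0.84) and *Gtf3a* (0.84), and for *Nr4a3* *Tubb2b* (0.86), *Sdc4* (0.86) and *Etv5* (0.85). For *Arc* they were *Gpm6a* (0.90), *Aldh1a1* (0.89) and *Etv4* (0.87), for *Dusp1* *Bloc1s1* (0.93), *Bcl10* (0.92) and *Impdh2* (0.92), and for *Crem* *Emd* (0.94), *Efcab14* (0.94) and *Asah1* (0.94). Among the members themselves, *Nr4a1* was closest to *Dusp1* (0.82) and *Crem* (0.81), and *Nr4a2* and *Arc* were the least alike (0.05). The sums of E were low for every member, with *Dusp1* highest at 3.17 CPM. Their part in all these r values was not tested.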

How the data were processed

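The deposited values were UMI counts per gene and cell, which the authors had made with Cell Ranger 2.1 against an NCBI rat annotation extended at 3′ ends, combining lanes after equalizing mapped reads. Barcodes and gene symbols were deposited beside them and carry no values. The cell number of each lane decided which sex it held, and 0 columns were left unmapped. CPM are UMIs of a gene over all UMIs of the same cells. Cells were typed by the study's marker rules (Otsu thresholds, 30 nearest neighbours for unclassified cells), and mitochondrial outliers, depth outliers and doublets were removed (275, 328 and 180 cells), as were 207 ambiguous cells. This rebuilt filter need not keep the cells the study kept. Shares use Otsu thresholds on log10 values scaled to the median total, with Clopper-Pearson intervals of 95%. A limit for a count of 0 is 3 counts.

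Sums per type and lane were tested with edgeR 4.0.16 (quasi-likelihood, TMM, filterByExpr with a minimum count of 10, 2-sided, Benjamini-Hochberg). Each SE is the absolute log2 fold change over the square root of the quasi-likelihood F statistic. It therefore also draws on the spread of other genes and is no plain SE of the lanes. Scripts were tested on simulated data. Alternatives were DESeq2 1.42.0, library size, hormone and globin genes left out, no filter, outliers kept, imputed cells left out, thinning to 2000 UMIs, an adjusted p of 0.05 and each lane left out. UMIs per cell were added after seeing the data. Members and lists were chosen with earlier results of these data known. Named genes were the members, the 3 nearest genes of each, and up to 3 called genes of lowest adjusted p per list, of which a selection is printed.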

Additional observations from a re-analysis of the deposited data

Results flagged for a closer look

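The difference between the sexes was unequal between the 6 pituitary types for each member, by the edgeR F test of the type-by-sex terms over 13507 genes. The adjusted p was 5.16e-25 for *Nr4a1*, 2.52e-17 for *Nr4a2*, 2.82e-10 for *Nr4a3*, 5.96e-16 for *Arc*, 9.18e-15 for *Dusp1* and 2.47e-16 for *Crem*. All 6 stayed under 0.001 in each alternative run, with the largest adjusted p, 0.000465, for *Arc*. Depth per cell moved in opposite directions in S and L (median UMIs 11540 in females and 15457 in males in S, 18316 and 7268.5 in L), and its part in these results was not tested beyond the thinned cells, in which all 6 members were called.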

How the results depend on the processing

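The 17 pairs of member and type called between the sexes became 10 with thinned cells and 12 with DESeq2, and 15 to 19 under the other alternatives at the same limit, with 22 at an adjusted p of 0.05. Leaving out 1 lane gave 16 to 18. Of the 17, 7 were called throughout (*Nr4a1*, *Nr4a2*, *Nr4a3*, *Dusp1* and *Crem* in S, *Arc* and *Nr4a1* in L), and 15 in each fit without 1 lane. No called pair changed its sign in a fit, but counted per cell with no scaling *Dusp1* in L did (log2 ratio -0.22). The cause was not tested. Thinning also left fewer pairs to test, with 5 members tested in S and in L, 4 in C, 3 in G and 1 each in T and EC. Of all genes in S, 6708 were tested in thinned cells and 319 called, against 11927 and 1300 in the main fit. The list counts in thinned cells are therefore out of smaller totals. Between the female lanes 1 member (*Arc*) was called with outliers and doublets kept, and 2 at an adjusted p of 0.05. The 6 interaction calls did not change. Signs changed for pairs called in neither fit: with library size for *Dusp1* (0.053) and *Nr4a2* (0.14) in G and *Crem* between the female lanes (-0.031), with thinning for *Nr4a2* in Le (0.030), *Crem* between the female lanes (-0.14) and *Nr4a1* (0.014) and *Nr4a3* (-0.10) between the male lanes, with outliers kept for *Nr4a1* (0.030) and *Nr4a3* (-0.0083) and without imputed cells for *Nr4a3* (-0.016) between the male lanes and *Nr4a2* in T (-0.63). Without 1 lane they ranged over both signs, in G for *Arc* (-0.14 to 0.33), *Crem* (-0.098 to 0.51), *Dusp1* (-0.46 to 0.063) and *Nr4a3* (-0.47 to 1.26), in EC for *Crem* (-0.19 to 0.71) and *Dusp1* (-0.34 to 0.16), in FSC for *Nr4a2* (-0.076 to 0.32) and in C for *Nr4a3* (-1.04 to 0.15). Library size also changed the split of all calls (higher in males and in females). It went from 600 and 700 to 672 and 525 in S and from 133 and 173 to 299 and 142 in G. In FSC it went from 147 and 231 to 215 and 211, and in T from 36 and 19 to 27 and 22. Of 54 levels, 8 moved by more than the SD over lanes with hormone and globin genes left out of the totals, 7 with thinning, 5 with outliers and doublets kept and 0 without the cells assigned by neighbours. Leaving out 1 lane also moved 0. As 1 of 4 lanes can hardly shift a level by more than the SD over the same lanes, that count is no check. Of 54 shares, 44 moved with 1 UMI as the threshold, 21 with thinning and 3 with outliers and doublets kept. No paired analysis was possible because the lanes of the deposited table carry no replicate number. Counting error limits T, EC and G most.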

Other observations

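Cells outside the 9 types also held the members. The 60 melanotrophs of the intermediate lobe (4 female, 56 male) had 367 CPM of *Nr4a1*, 571 of *Dusp1*, 153 of *Crem*, 102 of *Nr4a2*, 46.9 of *Arc* and 20.7 of *Nr4a3*. The 51 pericytes had 387 of *Nr4a1* (337, 0, 510 and 451 over the lanes) and 516 of *Dusp1* (751, 195, 638 and 268). Among 59 posterior pituitary cells, *Dusp1* was at 281 and *Nr4a1* at 230. Of their UMIs, 96 of 187 for *Dusp1* and 71 of 153 for *Nr4a1* came from the few cells of female lane A. The removal of outliers and doublets was not applied to cells outside the 9 types. With 4 female melanotrophs and 4 female posterior cells, no comparison of the sexes was made in them.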
